A study of Mus musculus with 21 samples.

Results

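The 30 genes described here encode enzymes of cholesterol synthesis and of fatty acid synthesis, with 4 genes that regulate them or carry sterol. They were taken by symbol from a published gene annotation out of 55536 genes counted in mouse mammary organoids. Of the 30, 18 are sterol enzymes (Acat2, Hmgcs1, Mvk, Pmvk, Mvd, Idi1, Fdps, Fdft1, Sqle, Lss, Cyp51, Tm7sf2, Msmo1, Nsdhl, Hsd17b7, Ebp, Sc5d and Dhcr7). Another 8 are fatty acid enzymes (Acly, Acss2, Acaca, Fasn, Elovl6, Scd1, Scd2 and Me1), and Srebf1, Srebf2, Insig1 and Stard4 are the regulators and the carrier. All 30 were found and all 30 passed the filter on low counts.

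The organoids were grown from primary mammary epithelia and were either wild type (WT) or homozygous for the Mre11 allele ATLD1 (ATLD). Mre11 is the nuclease of the complex that binds DNA double-strand breaks. All cultures had the oncogene neuT, an activated form of rat Erbb2, and polyadenylated RNA was sequenced at day 0, 14 and 28 of its activation. Each of the 6 groups has 3 libraries, and replicate 1 of each WT day was sequenced a second time in 1 batch with the ATLD libraries. As neuT was active in every later sample, its effect and that of culture time cannot be told apart. How neuT was driven and activated, and whether replicates came from separate animals, is not stated. The p-values then measure only the spread between these libraries, part of which may be technical.

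The 21 libraries held 30905703 to 51757203 counts. Mre11a, the gene of Mre11, was lower in ATLD at day 0, at 14.9 ± 0.725 counts per 1e+06 counts (CPM, mean ± SD, n = 3) against 55.5 ± 2.75 CPM for WT. The 3 original libraries of WT day 14 replicates 1 and 3 and of WT day 28 replicate 2 stood apart. In them genes with over 55% GC were low relative to genes with under 45% GC, with log2 values of -1.07, -1.05 and -0.835, while the other libraries lay between -0.465 and 0.656. Fasn, Srebf1, Srebf2, Mvk, Mvd, Pmvk and Tm7sf2 were low in these 3 libraries. Calls of named members that were lost without them are therefore pointed out. Counts of called members without them are given only for ATLD against WT. Marker sums and calls, arm means and the other gene lists are given only with them. The 7 luminal markers (Krt8, Elf5 and others) summed to at least 1179 CPM in every library. The 9 adipocyte markers summed to at most 1.51 CPM, and Adipoq, which defines adipocytes, had a mean of 0 in every group except ATLD day 28, where it was 0.0147 CPM.

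Cholesterol is built from acetyl-CoA by way of mevalonate and squalene, and fatty acids are built from the same acetyl-CoA by way of malonyl-CoA. The SREBP transcription factors control both routes. SREBP2, encoded by Srebf2, mainly drives the sterol enzymes, and SREBP1, encoded by Srebf1, mainly drives the fatty acid enzymes. When sterols are plentiful, INSIG proteins hold the precursors in the endoplasmic reticulum, and when sterols fall the precursors move to the Golgi and are cleaved. Oxysterols also activate LXR, which raises Srebf1 and sterol export genes. Mammary epithelium is known for making large amounts of fatty acids for milk.

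Promoter stretches of 6 enzyme genes are printed as examples of the letters that SREBPs and their usual partners bind. The sequences are from a promoter table made from RefSeq on GRCm38.p6, in which 24 of the 30 genes were matched. Fdft1, Fdps, Scd1, Scd2, Sqle and Stard4 are named only. Each stretch is written 5′ to 3′ on the gene's strand. It ends at the base before the transcription start, except that the stretches of Elovl6 and Me1 end 31 and 39 bases before the start in that table. Capitals mark the sterol response element TCACNCCAC and the NF-Y box CCAAT on either strand, so that ATTGG is a box on the opposite strand. Hmgcs1 (chr13:119690191-119690350, plus strand) is shown because it held the sterol response element. Nsdhl (chrX:72918401-72918520, plus strand) is a sterol gene that fell in ATLD by day 14, and Ebp (chrX:8193513-8193632, minus strand) is one that did not. Fasn (chr11:120824548-120824647, minus strand), Elovl6 (chr3:129532255-129532354, plus strand) and Me1 (chr9:86695954-86696053, minus strand) represent the fatty acid arm.
Hmgcs1: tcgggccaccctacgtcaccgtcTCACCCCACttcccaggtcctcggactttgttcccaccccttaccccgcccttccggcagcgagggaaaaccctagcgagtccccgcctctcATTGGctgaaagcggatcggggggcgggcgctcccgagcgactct
Nsdhl: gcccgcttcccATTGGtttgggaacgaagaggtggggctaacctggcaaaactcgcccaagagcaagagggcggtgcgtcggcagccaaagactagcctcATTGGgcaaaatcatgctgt
Ebp: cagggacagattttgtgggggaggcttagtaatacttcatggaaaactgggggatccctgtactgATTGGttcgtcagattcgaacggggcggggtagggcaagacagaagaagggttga
Fasn: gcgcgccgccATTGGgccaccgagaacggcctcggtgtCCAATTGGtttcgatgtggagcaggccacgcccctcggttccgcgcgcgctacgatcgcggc
Elovl6: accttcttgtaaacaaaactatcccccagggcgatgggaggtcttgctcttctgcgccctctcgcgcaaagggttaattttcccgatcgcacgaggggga
Me1: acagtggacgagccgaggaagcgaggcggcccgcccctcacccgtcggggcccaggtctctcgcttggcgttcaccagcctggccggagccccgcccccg

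Over the 250 bases before any start of a gene, searched on both strands, the NF-Y box CCAAT was present in 14 of 15 sterol enzyme genes, 3 of 6 fatty acid enzyme genes and 3 of 3 regulator genes. It was present in 37.5% of the 27025 genes with a promoter of this length. The GC box GGGCGG was present in 14 of 15, 3 of 6 and 3 of 3, beside 35.4% of all. The E-box CACGTG was found in 3 of 15, 0 of 6 and 1 of 3, beside 6.9%. The sterol response element TCACNCCAC was found in Hmgcs1, 137 bases before the start, and in no other of the 24 genes, beside 1.2% of all. None of these motifs overlap by their letters, but in Fasn 2 boxes on opposite strands overlap as CCAATTGG. In Me1 the box was at another start of the gene than the one shown. These are matches of letters, with no binding measured and no test between the arms.

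At WT day 0 the fatty acid arm held the most abundant transcripts. Per gene length, Scd2 was at 296 ± 6.66 and Scd1 at 255 ± 5.67 CPM per kb of gene length (RPKM, mean ± SD, n = 3), the 2 stearoyl-CoA desaturases that place the double bond in oleate. Acly, which makes cytosolic acetyl-CoA from citrate, was at 67.4 ± 4.06 RPKM. Hmgcs1, the HMG-CoA synthase that opens the mevalonate route, was the highest sterol enzyme at 53.4 ± 3.17 RPKM. Cyp51, the lanosterol demethylase, followed at 39.6 ± 2.71 RPKM, and Tm7sf2, a sterol reductase, was the lowest of them at 4.12 ± 0.219 RPKM. Acss2, which makes acetyl-CoA from acetate, was the lowest of all 30 at 3.63 ± 0.167 RPKM. Srebf1 at 66.7 ± 12.91 RPKM lay above Srebf2 at 31.2 ± 3.64 RPKM.

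In ATLD organoids 10 of the 18 sterol enzymes and 3 of the 8 fatty acid enzymes were called lower at day 14, and none higher. At day 14 against day 0, 0 members were higher and 14 of 30 were lower, where 5.18% of all 18684 genes tested were called higher and 6.49% lower (edgeR quasi-likelihood test, adjusted p under 0.05). The sterol arm had 10 of 18 genes lower, 17 of 18 with a negative sign, and a median log2 change of -0.44, beside -0.03 for all genes. Of all 18684 genes tested, 10090 had a negative sign. The fatty acid arm had 3 of 8 lower and a median of -0.39. For 23 of the 30 members every day 14 library lay below every day 0 library. The share of all genes without such overlap was not computed, so how unusual this number is cannot be told. With a replicate block 7 members were called, all lower, of which 4 were sterol and 2 fatty acid enzymes, beside 1490 of 18684 genes. With GC offsets 23 were called, with 13 sterol and 6 fatty acid enzymes lower and 1 fatty acid enzyme higher, beside 3621 of 18684 genes called.

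Acat2, the acetoacetyl-CoA thiolase at the head of the route, was at 73.3, 82.4 and 83.5 CPM in ATLD at day 0 and at 45.8, 44.5 and 50.8 CPM at day 14. The groups did not overlap, and the log2 change was -0.76 ± 0.09 (SE, adjusted p = 2.23e-05 by edgeR). Lss, the cyclase that makes lanosterol, went from 92.5, 89.5 and 111.0 CPM to 56.4, 60.9 and 57.4 CPM, a log2 change of -0.75 ± 0.11 (adjusted p = 0.000151 by edgeR). Pmvk, the phosphomevalonate kinase, changed by -0.68 ± 0.19. Its call was lost with a replicate block, and without replicate 2 or 3 of day 0 or replicate 1 or 2 of day 14. The other 7 called sterol enzymes (Fdps, Hsd17b7, Cyp51, Nsdhl, Hmgcs1, Fdft1 and Sqle) fell by 0.34 to 0.62 on the log2 scale. Ebp, the sterol isomerase, had 73.6, 96.3 and 101.8 CPM at day 0 and 92.6, 98.4 and 98.8 CPM at day 14, and was the sterol enzyme with a positive sign.

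Elovl6, which lengthens palmitate to stearate, was at 111.9, 95.2 and 97.8 CPM in ATLD at day 0 and at 69.2, 55.8 and 50.8 CPM at day 14, a log2 change of -0.79 ± 0.15. Scd1 was at 795, 755 and 791 CPM and then at 454, 506 and 440 CPM, a change of -0.74 ± 0.10. In both genes all day 14 libraries lay below all day 0 libraries. Acaca, the carboxylase that makes malonyl-CoA, changed by -0.41 ± 0.12. Its call was lost without replicate 1 of day 0 or replicate 2 or 3 of day 14. It was also lost with no filter, with a replicate block and with the compared groups alone. Fasn, the synthase, was at 643, 527 and 562 CPM and then at 324, 442 and 330 CPM, with no call (-0.66 ± 0.32, adjusted p = 0.242 by edgeR). Me1, the malic enzyme that supplies NADPH, was at 94.1, 108.6 and 117.2 CPM and then at 117.8, 124.3 and 127.0 CPM, again with no call (0.21 ± 0.10, adjusted p = 0.249).

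**Figure D1:**
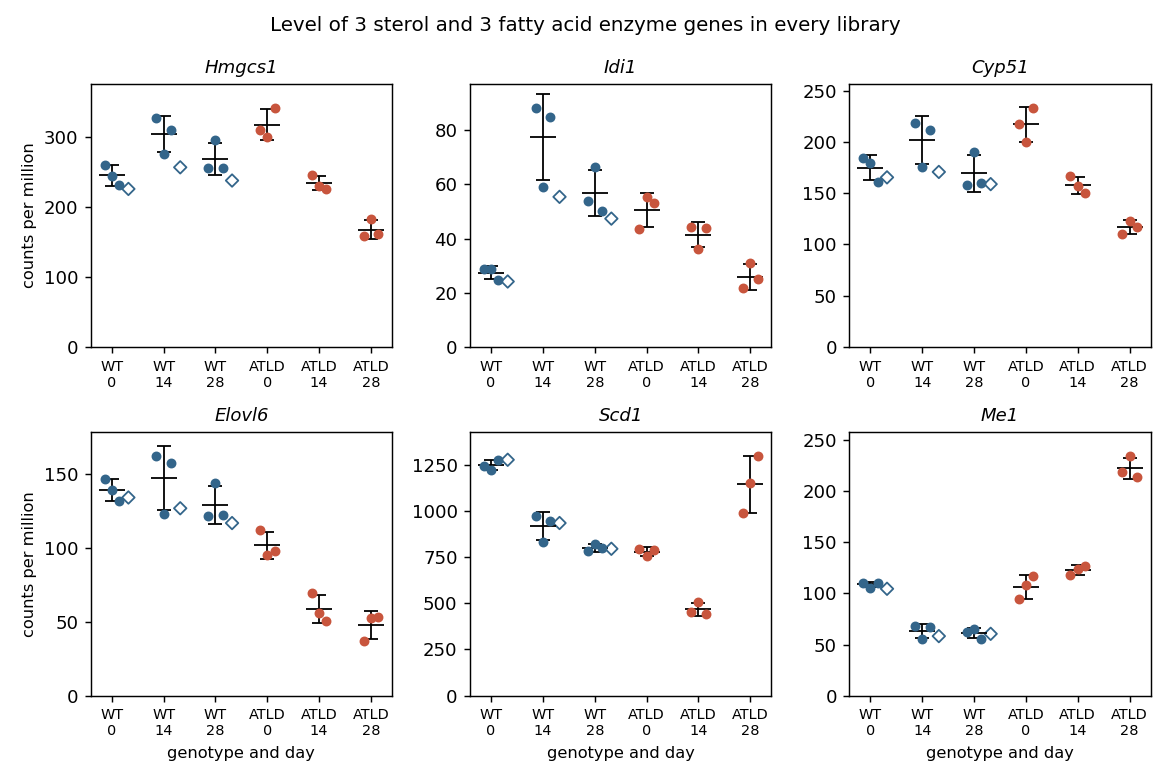
Level in CPM of 3 sterol enzyme genes (top) and 3 fatty acid enzyme genes (bottom) by genotype and day; points are the 3 original libraries of a group, open diamonds the resequenced WT runs, and bars the mean ± SD of the original libraries. Within ATLD, Hmgcs1, Idi1 and Cyp51 were lowest at day 28, while Scd1 and Me1 rose between day 14 and day 28 and Elovl6 did not.

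At day 28 in ATLD, 11 of the 18 sterol enzymes were below day 0, whereas Scd1 and Me1, of the fatty acid arm, had risen above it. Against day 0, 2 of 30 members were higher and 15 lower, beside 14.1% and 15.7% of all genes. The sterol arm had 0 of 18 higher and 11 lower, with a median log2 change of -0.43. In 16 of 18 genes the day 28 libraries all lay below those of day 0, but the share of all genes that did so was not computed. The fatty acid arm had 2 of 8 higher and 2 lower, with a median of -0.18, beside -0.02 for all genes tested.

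Hmgcs1 (ENSMUSG00000093930, mm10 chromosome 13, 119690379 to 119708260) was at 311, 301 and 342 CPM in ATLD at day 0, at 245, 230.5 and 226 CPM at day 14 and at 159, 183 and 162 CPM at day 28. No library of a later day reached one of an earlier day. The log2 change from day 0 to day 28 was -0.92 ± 0.10 (adjusted p = 2.17e-06 by edgeR). Idi1, the isopentenyl diphosphate isomerase (ENSMUSG00000058258, chromosome 13, 8885501 to 8892451), went from 43.5, 55.2 and 53.1 CPM at day 0 to 44.2, 36.0 and 43.9 CPM at day 14 and 21.6, 30.9 and 25.0 CPM at day 28. Its change from day 0 to day 28 was -0.97 ± 0.17 (adjusted p = 0.000321). Cyp51 (ENSMUSG00000001467, chromosome 5, 4081145 to 4104746) went from 218, 199.9 and 234 CPM to 167, 157 and 150.3 CPM and then 110.1, 123 and 117 CPM, a change of -0.89 ± 0.11 by day 28. The other 8 called sterol enzymes fell by 0.37 to 0.71 on the log2 scale. Exons of Hmgcs1, Idi1 and Cyp51 overlap a gene on the other strand, for Cyp51 the gene Akap9, and the strand setting of the counting is not given in the sources used here.

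Scd1 (ENSMUSG00000037071, chromosome 19, 44394455 to 44407879) rose from its day 14 level to 987, 1151 and 1296 CPM at day 28, above every ATLD library of the earlier days. The log2 change from day 0 was 0.55 ± 0.10 (adjusted p = 0.000633 by edgeR). Me1 (ENSMUSG00000032418, chromosome 9, 86581371 to 86695953) reached 218, 234 and 214 CPM, a change of 1.06 ± 0.10 (adjusted p = 6.49e-07). Elovl6 (ENSMUSG00000041220, chromosome 3, 129532355 to 129638495) went on at 36.7, 52.9 and 53.2 CPM, a log2 change of -1.09 ± 0.15 from day 0. Acaca was at 80.1, 93.1 and 104.9 CPM, a change of -0.47 ± 0.12 from day 0. Exons of Me1 and Elovl6 also overlap a gene on the other strand.

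Between day 14 and day 28 in ATLD, Scd1, Me1 and Acss2 rose and Idi1, Hmgcs1 and Cyp51 fell. Of the 30 members 3 were higher, all of them fatty acid enzymes, and 4 were lower, of which 3 were sterol enzymes, beside 8.25% and 9.05% of all genes, shares near the members' own. With GC offsets 6 were higher, of which 2 were sterol and 3 fatty acid enzymes, and 5 were lower, of which 4 were sterol enzymes. In that fit 4970 of 18684 genes were called. The arms were not tested against each other. Scd1 rose by 1.30 ± 0.11, Me1 by 0.85 ± 0.10 and Acss2 by 0.53 ± 0.11 on the log2 scale. Idi1 changed by -0.68 ± 0.17, Hmgcs1 by -0.48 ± 0.10 and Cyp51 by -0.43 ± 0.11. The call of Idi1 was lost without replicate 1 of ATLD day 28 (adjusted p = 0.0549 by edgeR). That of Cyp51 was lost with a replicate block (adjusted p = 0.0527 by edgeR). The remaining 15 sterol enzymes were not called, with values from -0.26 to 0.39. The comparisons of ATLD days share libraries, so their values are given side by side and are not independent of each other.

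Markers of dividing cells fell with day in ATLD. The 6 cycling markers (Mki67, Top2a and others) summed to 1376 to 1514 CPM in ATLD at day 0, 828 to 903 CPM at day 14 and 412 to 499 CPM at day 28, and 6 of 6 were called lower at day 28. The 6 basal and myoepithelial markers summed to 3564 to 3917, 2389 to 2444 and 1981 to 2185 CPM, with 1 of 6 called higher (Oxtr) and 4 lower at day 28, and the 7 luminal markers to 5734 to 6314, 4701 to 5447 and 4994 to 5914 CPM. Their part in the result was not tested. In RNA of whole cultures, fewer cells of a type and less RNA per cell cannot be told apart.

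In WT organoids sterol enzymes were called in both directions, with Idi1 higher and Dhcr7 lower at both later days, and the called fatty acid enzymes, Me1 and Scd1 among them, were lower. At day 14 against day 0, 4 of 30 members were higher and 9 lower, beside 15.2% and 15.1% of all genes. The sterol arm had 4 higher and 5 lower with a median log2 change of 0.00, and the fatty acid arm had 0 higher and 3 lower with a median of -0.26, beside 0.01 for all genes. At day 28 against day 0, 1 was higher and 6 lower, beside 12.3% and 12.4%. The median was -0.09 for the sterol arm, -0.28 for the fatty acid arm and 0.02 for all genes. Counts of called members without the 3 libraries low in GC-rich genes are not given, as that fit leaves WT day 14 with 1 library. The day 14 calls lost without them are given below.

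Idi1 rose in WT, from 28.9, 28.6 and 24.6 CPM at day 0 to 88.3, 59.1 and 84.7 CPM at day 14 and 53.9, 66.5 and 50.3 CPM at day 28. The log2 change was 1.50 ± 0.17 at day 14 and 1.05 ± 0.17 at day 28 (adjusted p = 2.32e-06 and 0.000125 by edgeR). The resequenced runs of replicate 1 had 24.1, 55.4 and 47.3 CPM, in the same order of days. Without the 3 WT libraries low in GC-rich genes, the change of Idi1 at day 14 was 1.07. Dhcr7, the reductase of the last step to cholesterol, fell from 86.2, 89.7 and 95.2 CPM to 37.0, 47.6 and 34.9 CPM at day 14 and 45.6, 38.7 and 47.8 CPM at day 28. Its log2 changes were -1.18 ± 0.13 and -1.04 ± 0.13, with no overlap of either day with day 0.

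Me1 fell in WT from 110.5, 105.8 and 110.5 CPM at day 0 to 67.8, 55.7 and 67.1 CPM at day 14 and 62.1, 65.7 and 55.7 CPM at day 28. The changes were -0.78 ± 0.10 and -0.83 ± 0.10 on the log2 scale (adjusted p = 1.3e-05 and 7.12e-06 by edgeR). Scd1 fell from 1243, 1222 and 1277 CPM to 974, 832 and 947 CPM and then 781, 822 and 799 CPM, with log2 changes of -0.44 ± 0.10 and -0.64 ± 0.10. For both genes every later library lay below every day 0 library, and the resequenced runs of days 14 and 28 did too. Acaca was called at day 28 with -0.41 ± 0.12, and Lss with -0.36 ± 0.11. The call of Acaca was lost without any 1 of the day 0 replicates or without day 28 replicate 1 or 3. That of Lss was lost without day 0 replicate 3 or day 28 replicate 2, and with no filter. Both were also lost with a replicate block.

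Several WT calls of day 14 were lost without the libraries low in GC-rich genes, which leaves day 14 with 1 library. Whether GC content or the smaller group lost them cannot be told apart. Fasn (57.9% GC) was at 133, 360 and 131 CPM in replicates 1, 2 and 3, and at 392 CPM in the resequenced run of replicate 1, beside 336, 435 and 434 CPM at day 0. It was called with -0.95 ± 0.32 but changed by -0.20 without those libraries (adjusted p = 0.509 by edgeR). Pmvk with -0.60 ± 0.19, Msmo1 with 0.38 ± 0.12, Sc5d with 0.40 ± 0.11 and Tm7sf2 with -0.61 ± 0.16 lost their calls in the same way. Each of these calls but that of Tm7sf2 was also lost without day 14 replicate 1 or without day 14 replicate 3 alone. Those of Pmvk, Fasn and Msmo1 were lost without day 0 replicate 2 or 3, and with a replicate block. The calls of Fasn, Pmvk, Msmo1, Sc5d and Tm7sf2 were also lost with the compared groups alone and with resequenced runs as replicate 1. Idi1 stayed higher, and Dhcr7, Me1, Scd1 and Insig1 stayed lower, without the 3 libraries. The count of called members was 6 without day 14 replicate 1 or 3 and 7 without day 0 replicate 2 or 3. Calls among all genes ran there from 4456 of 19074 to 4614 of 19121. The count of members was 21 without day 14 replicate 2, which leaves day 14 with the low libraries alone. Of all genes, 8242 of 19161 were then called.

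Between day 14 and day 28 in WT, 0 members were called by edgeR in either direction, where 0.530% of all genes were called higher and 0.375% lower. Unadjusted p-values of edgeR were under 0.05 for 5 of 30 members, beside 1851 of 18684 genes. DESeq2 also called 0 members, and its number of calls among all genes is not given here. Without day 14 replicate 2, 12 were called, beside 3817 of 19161 genes. In WT the luminal markers summed to 2770 to 3176 CPM at day 0 and to 1179 to 1704 CPM at day 14, with 6 of 7 called lower. Basal and myoepithelial markers summed to 2076 to 2671 CPM at day 0 and to 3933 to 9539 CPM at day 14, with 3 of 6 called higher and 3 lower, among them Acta2 with means of 282 and 10.6 CPM. The day 14 range includes the libraries low in GC-rich genes. In replicate 1 of day 14 these markers summed to 4082 CPM in the original run and to 9617 CPM in the resequenced run. The cycling markers summed to 1026 to 1184 CPM at day 0 and to 1022 to 1127 CPM at day 14, with 0 of 6 called at day 14 or day 28. The part of these markers in the result was not tested.

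**Figure D2:**
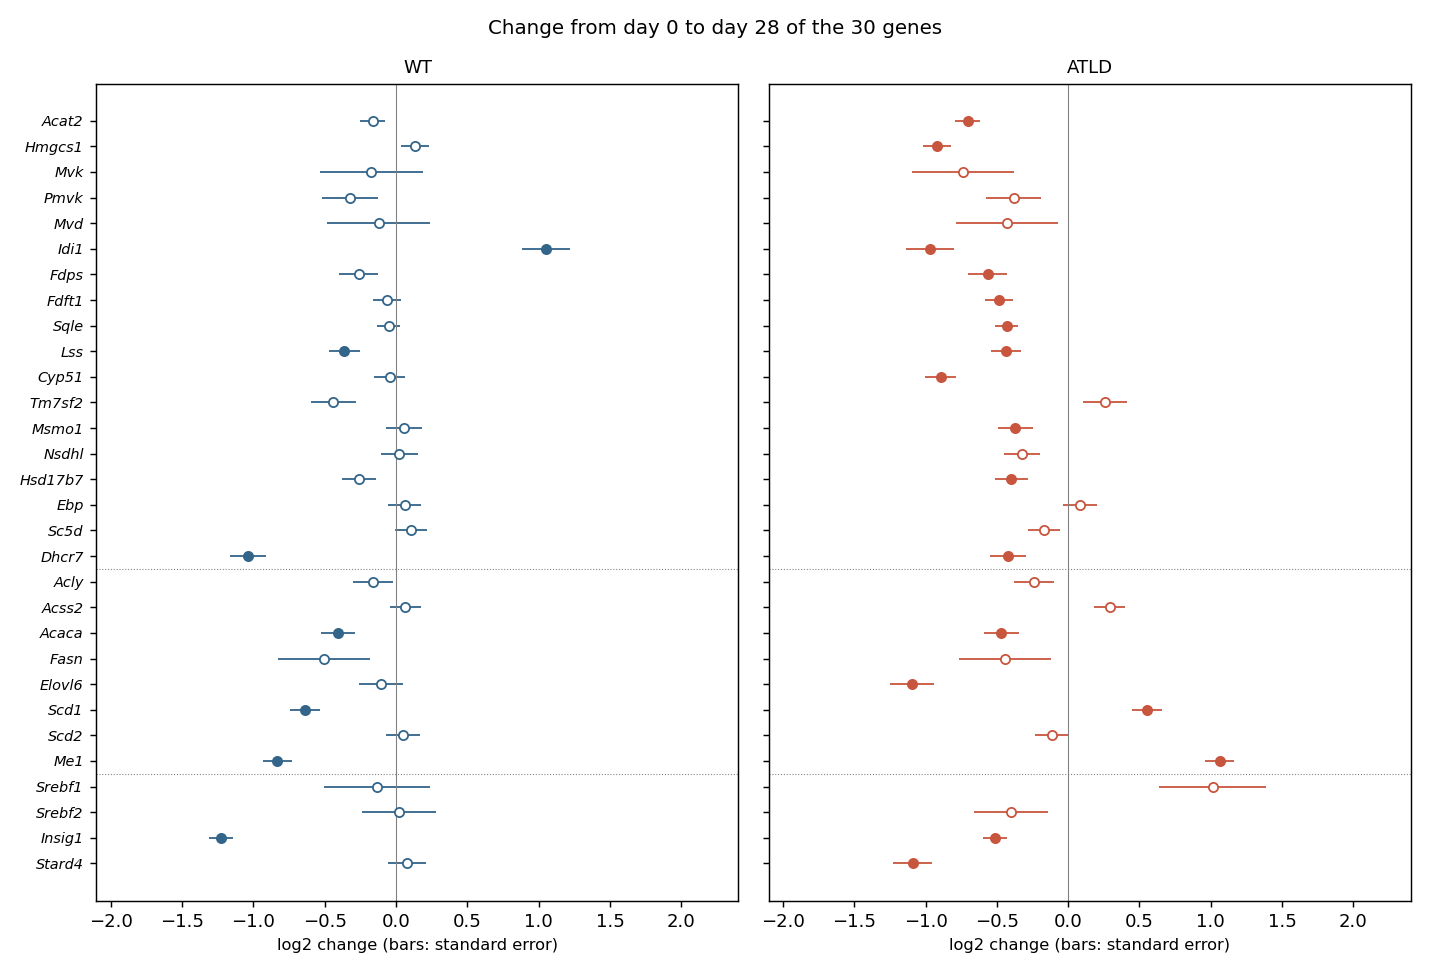
Log2 change from day 0 to day 28 of the 30 genes in WT (left) and ATLD (right), with bars of 1 standard error; filled points were called at an adjusted p under 0.05, and dotted lines part the sterol enzymes, the fatty acid enzymes and the regulators. In WT 7 genes were called and in ATLD 17, and Idi1, Scd1 and Me1 moved in opposite directions in the genotypes.

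Whether the change with day differed between the genotypes was tested directly. From day 0 to day 14, 3 of 30 members changed more upward and 13 more downward in ATLD than in WT, beside 10.8% and 10.6% of all genes. From day 0 to day 28 the numbers were 5 and 8, beside 13.5% and 14.0%. The sterol arm had 1 up and 10 down of 18 at day 14, and 2 up and 6 down at day 28, and the fatty acid arm had 1 up and 2 down of 8, and then 2 up and 1 down. The medians of the difference were -0.44 and -0.33 for the sterol arm, -0.23 and 0.00 for the fatty acid arm, and -0.04 and -0.05 for all genes. In the fit without the 3 WT libraries low in GC-rich genes WT day 14 held 1 library, so its counts are not given.

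Idi1 showed the widest gap among the sterol enzymes. Its log2 change in ATLD minus that in WT was -1.79 ± 0.24 at day 14 and -2.02 ± 0.24 at day 28 (adjusted p = 2.02e-05 and 4.7e-06 by edgeR), and -1.34 and -1.87 without those 3 libraries. Dhcr7 went the other way, with 1.02 ± 0.18 at day 14. The difference of Hmgcs1 was -1.05 ± 0.14 at day 28. In the fatty acid arm Me1 differed by 0.98 ± 0.14 at day 14 and 1.89 ± 0.15 at day 28, and Scd1 by 1.19 ± 0.15 at day 28. Elovl6 differed by -0.88 ± 0.21 at day 14, a call lost without the 3 low libraries (-0.56, adjusted p = 0.108 by edgeR). For Idi1, Me1 and Scd1 at day 28 the gap joined a change in one direction in WT to a change in the other in ATLD, while for Hmgcs1 the WT change was not called (0.13 ± 0.10).

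Genotype differences were present at day 0, with Idi1 and Ebp higher and Scd1 lower in ATLD. ATLD against WT at day 0, with the resequenced runs and a batch term in the fit, gave 8 of 30 members higher and 3 lower, beside 26.1% and 29.5% of 18844 genes, so that the share higher was near that of all genes. All 8 higher members were sterol enzymes. Idi1 was higher by 1.16 ± 0.18, Ebp by 0.61 ± 0.12 and Msmo1, the C4-methylsterol oxidase, by 0.55 ± 0.14 on the log2 scale. Acat2, Hmgcs1, Fdps, Fdft1 and Cyp51 were the others, higher by 0.43 to 0.54. The median difference was 0.45 over the sterol arm, -0.15 over the fatty acid arm and -0.04 over all genes, with no test of one arm against the other. Scd1 differed by -0.70 ± 0.11 and Scd2 by -0.41 ± 0.13. Lss was called lower, with a difference of -0.28 ± 0.11, a call lost in 8 of 14 alternatives, among them leaving out any WT replicate or ATLD replicate 1 or 2. That of Scd2 was lost without WT replicate 1 or ATLD replicate 2, and in the second batch alone. Markers differed with genotype too. Luminal markers were called higher in ATLD for 6 of 7 genes at day 0 and for 7 of 7 at days 14 and 28, with median log2 differences of 0.73, 1.73 and 1.59. Cycling markers were called higher for 3 of 6 at day 0, higher for 2 and lower for 2 at day 14, and lower for 4 at day 28. Fibroblast markers were lower for 4 of the 5 tested at day 0, and summed to 11.03 to 17.1 CPM in ATLD and 45.1 to 49.8 CPM in WT. Pdgfra, at 35.7 ± 1.37 CPM, made most of the WT sum, which was 44.75 CPM in the resequenced run. Immune markers summed to 4.785 to 9.913 CPM in the original WT libraries of day 0 but to 0.4364 CPM in the resequenced run. Lung epithelial markers summed to 8.532 to 17.15 CPM and to 3.213 CPM. Why the runs differed, and the part of markers in the genotype differences, was not tested.

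At day 14 ATLD against WT had 4 of 30 higher and 12 lower, beside 30.1% and 35.0% of all genes. Of the 18 sterol enzymes 6 were lower, a share near the 35.0% of all genes. With no batch term 10 sterol enzymes were lower, in a fit where 25 members and 13376 of 18684 genes were called. Fewer sterol enzymes were called lower in the second batch alone, which holds 1 WT library at day 14. Lower sterol enzymes were led by Lss (-0.75 ± 0.11), Idi1 (-0.55 ± 0.18) and Nsdhl, which removes the C4 carboxyl group (-0.54 ± 0.13). Dhcr7 was higher by 0.93 ± 0.13 and Ebp by 0.59 ± 0.12. In the fatty acid arm 5 of 8 were lower and 1 higher: Elovl6 differed by -1.17 ± 0.16, Scd1 by -0.99 ± 0.11 and Scd2 by -0.99 ± 0.13, and Me1 was higher by 1.03 ± 0.11. The call of Idi1 was lost without WT replicate 1, without ATLD replicate 2, without the libraries low in GC-rich genes and in the second batch alone, and that of Nsdhl in the second batch alone. Scd2 was at 1897, 2059 and 1834 CPM in WT and at 1019, 1014 and 829 CPM in ATLD, and its resequenced WT run was at 1926 CPM. Without the libraries low in GC-rich genes 15 members were called at day 14. The number of all genes called in that fit is not given here, so how unusual this count is cannot be told.

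At day 28 ATLD against WT had 7 of 30 higher and 9 lower, beside 29.3% and 34.9% of all genes, shares near the members' own. Me1 was higher by 1.92 ± 0.11 (adjusted p = 3.38e-11 by edgeR), Scd1 by 0.51 ± 0.11 and Acss2 by 0.30 ± 0.11. Elovl6 differed by -1.30 ± 0.16, Scd2 differed by -0.55 ± 0.13 and Acaca by -0.34 ± 0.12. Among sterol enzymes Idi1 (-0.84 ± 0.18), Hmgcs1 (-0.50 ± 0.10) and Cyp51 (-0.41 ± 0.11) were lower, and Tm7sf2 (0.63 ± 0.17), Ebp (0.60 ± 0.12) and Dhcr7 (0.57 ± 0.13) higher. The call of Acss2 was lost without WT replicate 1 or ATLD replicate 1 or 2, and that of Acaca without WT replicate 1 or ATLD replicate 1. Both were also lost with no filter and with a replicate block. In the second batch alone Acss2, Acaca and Scd2 were not called. Without the WT library low in GC-rich genes, and those of day 14, 19 members were called. The number of all genes called in that fit is not given here, so how unusual this count is cannot be told. Ebp was called higher in ATLD at each of the 3 days, and no other sterol enzyme was.

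**Figure D3:**
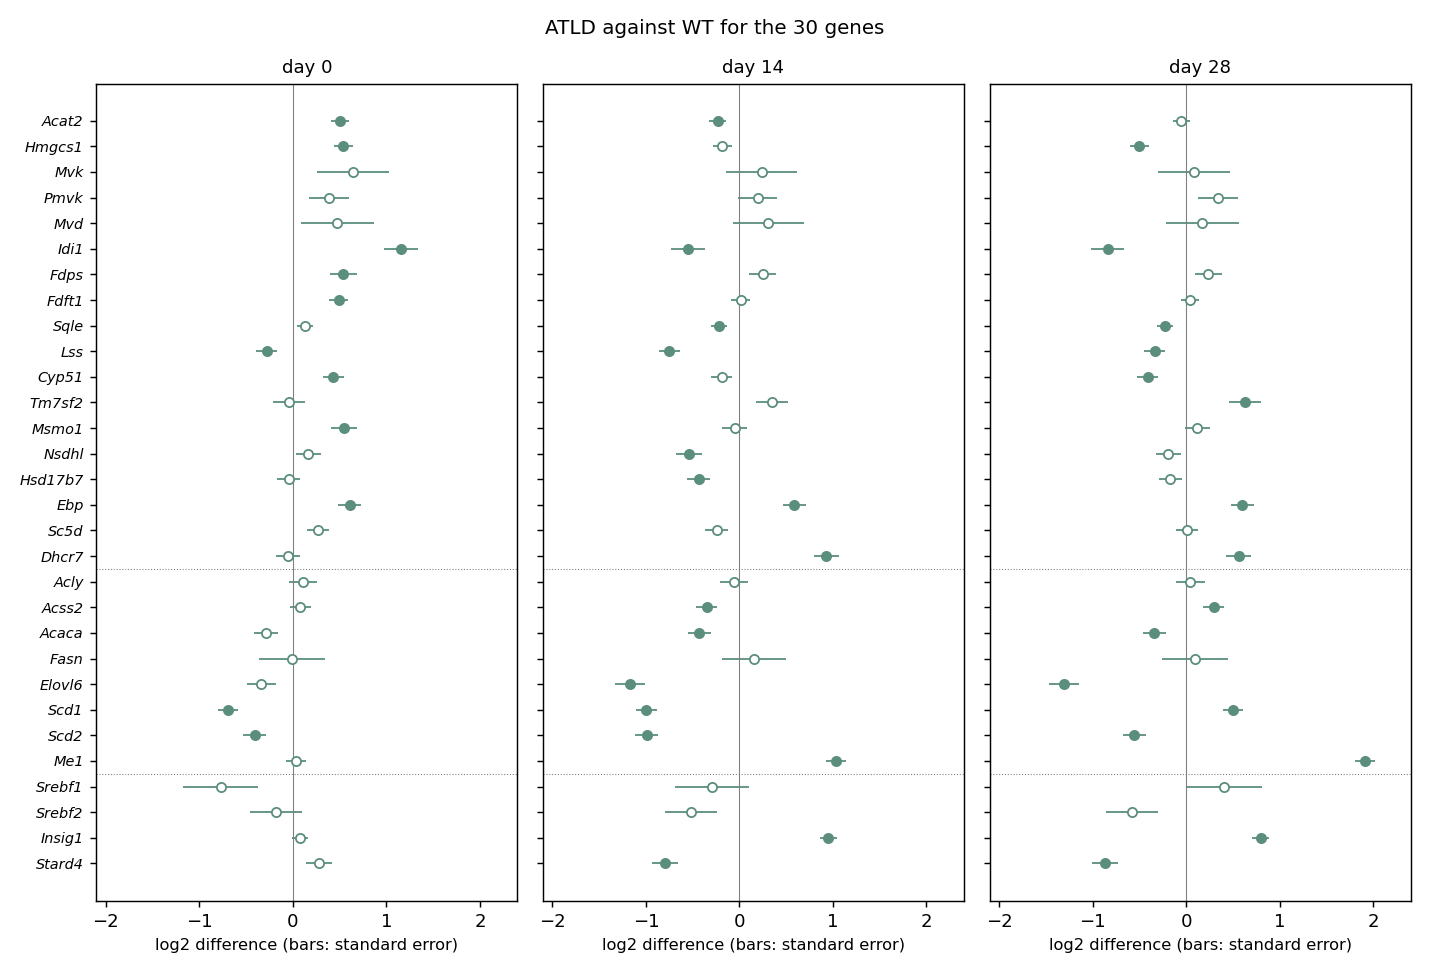
Log2 difference of ATLD minus WT for the 30 genes at day 0, 14 and 28, with bars of 1 standard error and filled points for genes called at an adjusted p under 0.05. At day 0 the 8 genes called higher are sterol enzymes. At day 28 Me1 lies at 1.92 and Elovl6 at -1.30.

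Averaged over each arm within a library, the same levels can be compared without choosing single genes. The mean log2 level of the 18 sterol enzymes relative to WT day 0 was 0.31, 0.37 and 0.49 in the ATLD libraries of day 0, -0.03, -0.03 and 0.00 at day 14 and -0.08, 0.01 and -0.13 at day 28. In WT it was -0.09, 0.06 and -0.17 at day 14 and -0.09, -0.20 and -0.05 at day 28. ATLD at day 0 was thus the group set apart, and the ATLD levels of the later days lay within the range of WT. The fatty acid mean was -0.08, -0.21 and -0.07 in ATLD at day 0, -0.53, -0.43 and -0.66 at day 14 and -0.28, -0.14 and -0.12 at day 28. In WT it was -0.32, -0.21 and -0.35 at day 14 and -0.30, -0.40 and -0.28 at day 28, so the fatty acid mean was below day 0 in WT too, and the genotypes overlapped at day 28. The sterol mean minus the fatty acid mean was 0.39 to 0.58 in ATLD at day 0, 0.41 to 0.66 at day 14 and -0.01 to 0.20 at day 28. In WT it was 0.19 to 0.27 at day 14 and 0.20 to 0.22 at day 28, and the resequenced runs of these days gave 0.18 and 0.22. These means are a description and carry no test.

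**Figure D4:**
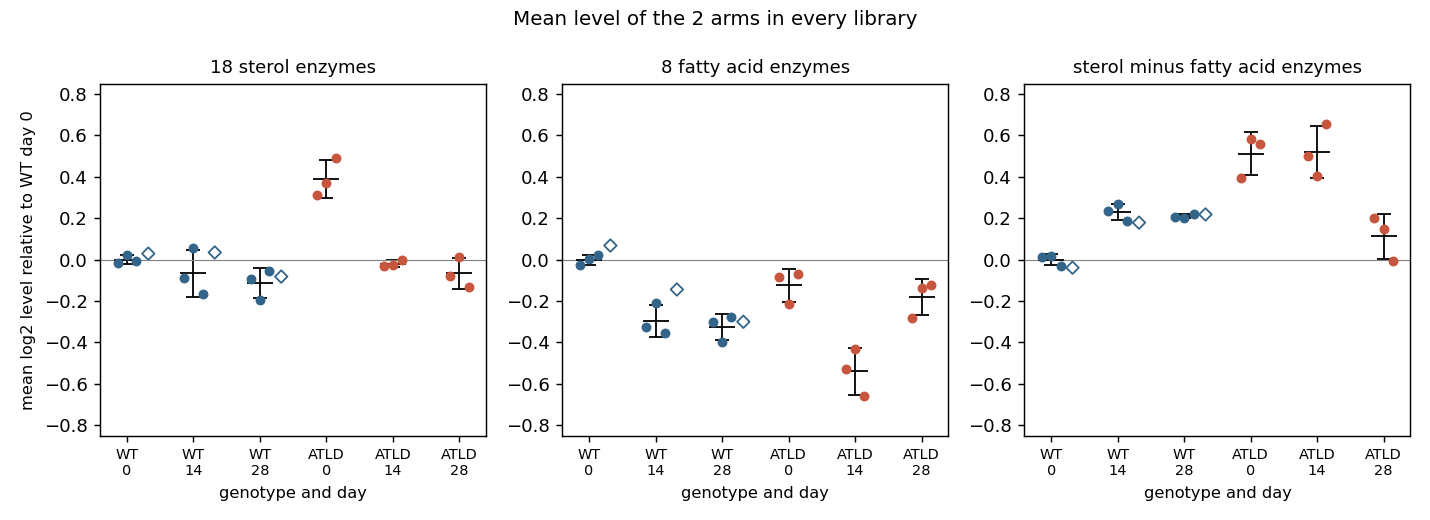
Mean log2 level over the 18 sterol enzymes (left), over the 8 fatty acid enzymes (middle) and their difference (right), relative to the mean of WT day 0; points are the original libraries, open diamonds the resequenced WT runs, and bars the mean ± SD. The sterol mean of ATLD at day 0, 0.31 to 0.49, lies above all other libraries, and the fatty acid mean of ATLD at day 14, -0.43 to -0.66, below them.

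The regulators did not follow 1 pattern. Insig1, whose protein holds the SREBP precursors back and which is itself an SREBP target (ENSMUSG00000045294, chromosome 5, 28071363 to 28078662), was at 112.2, 103.8 and 102.4 CPM in WT at day 0. It was at 51.5, 46.7 and 49.2 CPM at day 14 and at 43.4, 49.5 and 43.3 CPM at day 28. The log2 changes were -1.11 ± 0.08 and -1.23 ± 0.09 (adjusted p = 1.71e-08 and 6.42e-09 by edgeR). In ATLD it was at 99.1, 102.1 and 111.0 CPM, then 87.9, 84.8 and 88.3 CPM, then 73.3, 74.7 and 70.8 CPM. The fall there was called at day 28 against day 0, by 0.51 ± 0.08, and at day 28 against day 14 with -0.25 ± 0.08, a call lost in 10 of 13 alternatives, among them leaving out any replicate of day 14. The change differed between genotypes by 0.85 ± 0.12 at day 14 and 0.71 ± 0.12 at day 28, and ATLD was higher than WT by 0.95 ± 0.09 and 0.80 ± 0.09 at these days.

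Stard4, a carrier of cholesterol between membranes, was at 85.1, 76.0 and 77.3 CPM in ATLD at day 0, at 54.6, 40.5 and 45.4 CPM at day 14 and at 30.6, 41.5 and 39.7 CPM at day 28. The log2 changes from day 0 were -0.76 ± 0.13 and -1.09 ± 0.14. In WT it was at 78.8, 75.2 and 68.3 CPM, then 102.9, 81.7 and 97.6 CPM, then 73.9, 86.0 and 74.2 CPM, and neither change was called. The genotypes differed in the change by -1.11 ± 0.19 and -1.16 ± 0.19, and ATLD was lower than WT with -0.80 ± 0.14 at day 14 and -0.87 ± 0.14 at day 28.

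Srebf1 and Srebf2 themselves were not called in any of the 11 comparisons. Srebf1 was at 386, 306 and 295 CPM in ATLD at day 0, at 280, 370 and 320 CPM at day 14 and at 721, 548 and 723 CPM at day 28. The day 28 libraries lay above all earlier ones, with a log2 change of 1.01 ± 0.37 from day 0 that did not pass the test (adjusted p = 0.0509 by edgeR). In WT at day 14 it was at 140.0, 444 and 145 CPM, and at 471 CPM in the resequenced run, the low values being those of libraries low in GC-rich genes. Srebf2 was at 340, 264 and 250 CPM in ATLD at day 0 and at 212, 194 and 241 CPM at day 28, a change of -0.40 ± 0.26 (adjusted p = 0.269). Exons of Srebf1 overlap Rai1 on the other strand.

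**Figure D5:**
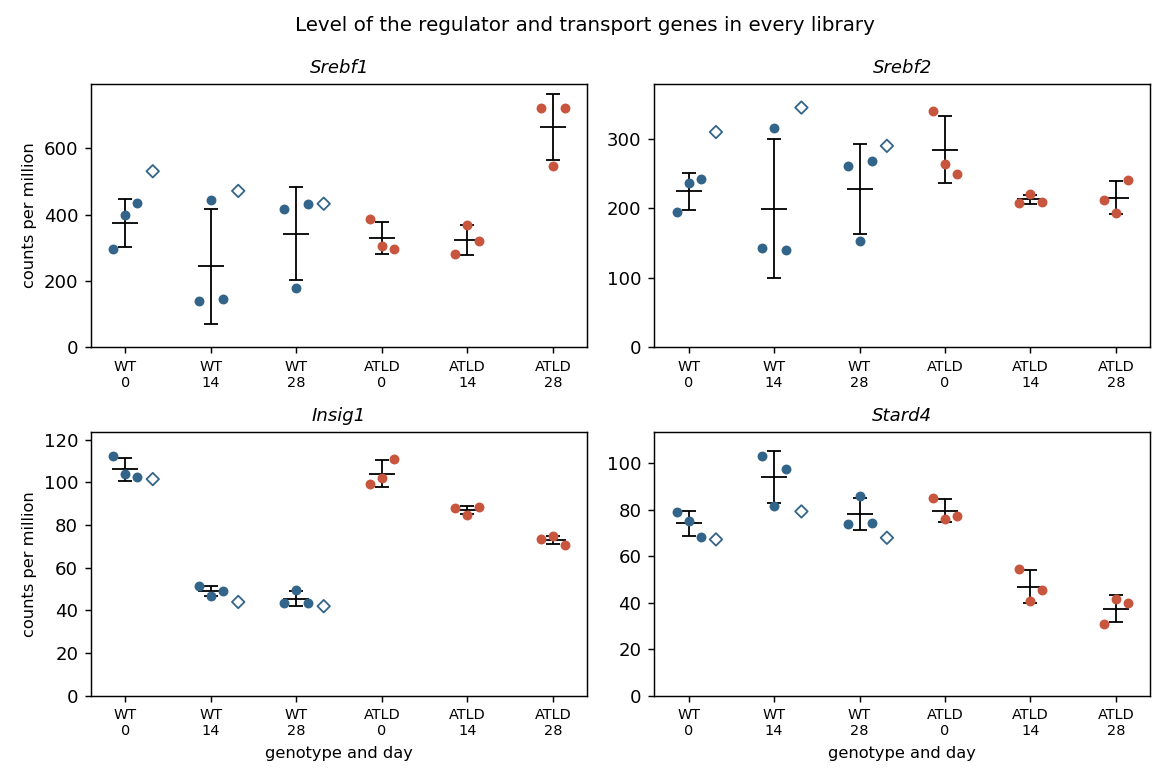
Level in CPM of Srebf1, Srebf2, Insig1 and Stard4 by genotype and day, with points for the 3 original libraries of a group, open diamonds for the resequenced WT runs and bars for the mean ± SD. Insig1 was at 43.3 to 51.5 in WT at the later days and at 70.8 to 88.3 in ATLD, whereas Stard4 was lower in ATLD than in WT at these days.

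Other genes of these routes, in lists by function, gave a wider view. Beside the counts called from day 0 to day 28 stand 14.1% of all genes higher and 15.7% lower in ATLD, and 12.3% and 12.4% in WT. Several lists lie near these shares, and none was tested as a list. Of 8 genes of sterol efflux and LXR, 3 rose and 1 fell in ATLD by day 28, and 1 rose and 1 fell in WT. Abcg1, a sterol exporter, was at 9.65 ± 0.868 CPM in ATLD at day 0 and at 32.6 ± 3.77 CPM at day 28, a log2 change of 1.76 ± 0.18 (adjusted p = 1.43e-06 by edgeR). Pltp, a phospholipid transfer protein, fell by 1.52 ± 0.25 in ATLD and rose by 1.64 ± 0.24 in WT. Of 8 genes of SREBP processing, 1 rose (Insig2, 0.56 ± 0.12) and 2 fell in ATLD by day 28, Erlin1 the most at -0.58 ± 0.13, and 0 were called in WT. The non-sterol isoprenoid branch had 0 of 9 higher and 2 lower in ATLD, led by Pdss1 at -0.87 ± 0.15, and 1 higher and 1 lower in WT. In the list of sterol esterification and lysosomal export, Lipa, the lysosomal acid lipase, fell in WT by 2.50 ± 0.14 by day 28 and rose in ATLD by 0.78 ± 0.13.

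On the fatty acid side, against the same shares of all genes, 6 of 11 genes of fatty acid oxidation rose and 0 fell in ATLD by day 28, and 2 rose and 1 fell in WT. Cpt1a, which admits fatty acids to mitochondria, rose by 0.85 ± 0.10 and Acadvl, a long-chain acyl-CoA dehydrogenase, by 0.79 ± 0.12 in ATLD (adjusted p = 9.22e-06 and 7.66e-05 by edgeR). Other fatty acid synthesis genes had 2 of 15 higher and 3 lower in ATLD, and 3 higher and 4 lower in WT. NADPH supply had 2 of 5 higher in ATLD (G6pdx and Idh1) and 1 in WT. Glycerolipid synthesis had 3 of 9 higher and 2 lower in ATLD, with Acsl4, an acyl-CoA synthetase, at 1.15 ± 0.14, and 1 higher and 3 lower in WT. Of 8 genes of milk lipid secretion, 7 were tested. Plin2, the lipid droplet coat protein, rose by 1.21 ± 0.12 in ATLD, from 181 ± 18.4 to 417 ± 40.0 CPM, and Lpl, the lipoprotein lipase, fell by 2.64 ± 0.27. In WT 4 fell and 0 rose, with Mfge8, a milk fat globule protein, at -1.87 ± 0.25 and Lpl at -1.36 ± 0.22.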

How the data were processed

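RNA of 21 libraries was measured, 18 original and 3 resequenced. The deposited table holds raw, unnormalized counts per gene and, per the file headers, an other column of gene length in bases. Per the submitters' processing notes, featureCounts, DESeq2 and mm10 were used, with no versions stated. The sources used here do not give the aligner, the strand setting or the annotation release. Gene IDs were matched to GENCODE vM21 symbols.

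Counts were filtered (filterByExpr, minimum count 10, minimum total 15), scaled by TMM and tested with the two-sided quasi-likelihood F test of edgeR 4.0.16 under R 4.3.3, with Benjamini-Hochberg adjustment over all genes, a call threshold of 0.05 and a prior count of 0.125. Comparisons of days and genotype by day were fitted on the 18 originals (18684 genes, 12 residual df). ATLD against WT used 21 libraries with a batch term (18844 genes, 14 residual df). That term was called for 44 genes and 0 of the 30 members. Its log2 estimates over the members ran from -0.31 (Idi1) to 0.65 (Mvd). They were 0.54 to 0.65 for Mvk, Mvd, Fasn, Srebf1 and Srebf2. Unadjusted p-values of edgeR were under 0.05 for these genes and Idi1, so a batch effect on members is not excluded. The term sets original WT libraries against resequenced WT runs. All libraries low in GC-rich genes are original WT ones, so batch and GC content are partly mixed. In the fit of ATLD against WT both runs of a WT culture count as separate libraries. Arm means are averages of log2(CPM + 1). Depth was 30905703 to 51757203 counts a library. The pipeline was tested on simulated data.

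The members, gene lists and tests were chosen with earlier results of these data known. Changes are named for up to 3 called enzymes per arm and direction in each comparison, for called regulators, and for up to 2 members per arm in genotype by day and per other list. Levels of Fasn, Srebf1, Srebf2 and other members are given beside these. Alternatives were median-of-ratios (RLE) size factors, no filter, DESeq2 1.42.0, GC offsets, each replicate left out, a replicate block, the compared groups alone, resequenced runs as replicate 1, fitting the second batch by itself, omitting the batch term, and voom in limma 3.58.1 with culture as a random block. Leaving out the 3 WT libraries low in GC-rich genes was added after seeing the data. The results of 1 list of other genes of these routes are not reported here.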

Additional observations from a re-analysis of the deposited data

Results flagged for a closer look

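The following values were picked out because the change with day differed between the genotypes by a direct test. Each is the log2 change from day 0 in ATLD minus that in WT. At day 14 the value was -1.79 for Idi1, 1.02 for Dhcr7, 0.98 for Me1, -0.88 for Elovl6, 0.85 for Insig1 and -1.11 for Stard4. At day 28 it was -2.02 for Idi1, -1.05 for Hmgcs1, 1.89 for Me1, 1.19 for Scd1, 0.71 for Insig1 and -1.16 for Stard4. Without the 3 WT libraries low in GC-rich genes, which leaves 1 library at WT day 14, these values kept their direction. The call of Elovl6 at day 14 was lost.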

How the results depend on the processing

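All 83 named values of the 30 members kept their direction in every alternative, and 63 also kept their call. Genes of the other lists were not recomputed under the alternatives. The count of members called moved by more than 1.5 times in these cases, and the cause was not tested. With GC offsets it was 11 for WT day 28 against day 0, 23 (1 higher, 22 lower) for ATLD day 14 against day 0, 11 (6 higher, 5 lower) for ATLD day 28 against day 14 and 17 (11 higher, 6 lower) for ATLD against WT at day 0. In the same order, 6182, 3621 and 4970 of 18684 genes and 12338 of 18844 genes were called. For WT day 14 against day 0 it was 7 with the compared groups alone and 5 with resequenced runs as replicate 1, beside 4800 of 17184 and 5035 of 18607 genes. It also moved without the 3 WT libraries low in GC-rich genes, a fit with 1 library at WT day 14. Numbers of all genes called without those 3 libraries are not given here. For ATLD against WT at day 14 it was 25 with no batch term and 10 in the second batch alone. Leaving out 1 library gave 6 to 21 for WT day 14 against day 0 and 0 to 12 for WT day 28 against day 14, both highest without WT day 14 replicate 2. Without that replicate the calls among all genes were many too, 8242 and 3817 of 19161. The sterol mean of ATLD day 14 was -0.0381 with RLE size factors and -0.019 with TMM.

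Correlations of same-numbered deviations from group means ran from -0.701 to 0.317. They were not set against those of differently numbered libraries, so they cannot show whether replicate numbers pair the samples. With a replicate block 7 members were called for WT day 14 against day 0 and 7 for ATLD day 14 against day 0, beside 4530 and 1490 of 18684 genes. The other counts stayed within 1.5 times. With 3 libraries a group, genes with a wide spread such as Srebf1 and Fasn shifted without a call (Fasn, WT day 28 against day 0, -0.50 ± 0.32).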
